A study of Mus musculus with 68 samples.

Results

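Pharyngeal arch 2 (PA2) was compared with pharyngeal arch 1 (PA1) in mouse embryos labelled Hoxa2-/- at E10.0, to describe which transcripts still parted the arches under that label. The members are all 5 PA2 libraries and all 5 PA1 libraries that the labels give to this genotype and stage, 10 of the 68 libraries of the series. Libraries with the same replicate number are the 2 arches of 1 embryo, so 5 embryos are behind the comparison. The embryos came from a CBA/Ca/J x C57BL/10 background, as did all groups used here. Arches were cut out by hand, so a library holds every tissue of its arch. Wildtype embryos of E10.0 (5 PA1 and 5 PA2 libraries) and embryos labelled Hoxa2-/- of E9.5 (5 and 5) and E10.5 (3 and 3) gave the arch differences set beside it. The Hoxa2 allele behind the label and the way it was genotyped are not given in the sources used here.

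The arches are paired swellings of the embryonic throat. Each has a mesoderm core inside mesenchyme from the neural crest, ectoderm on its outer face and endoderm on its inner face, and endodermal pouches lie between neighbouring arches. PA1 forms the jaws and PA2 forms parts of the hyoid bone and middle ear. Hox genes are off in the crest of PA1, and Hoxa2, a homeobox transcription factor gene, is known as the gene that sets PA2 crest apart from PA1 crest: without it, skeletal elements of the PA1 kind form in PA2.

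Levels are the deposited values, written here as CPM. They are scaled to the library's reads with normalization factors, and each is worth a whole number of reads. Recovered reads per library ran from 14655234 to 16868515 in PA1 and from 13390985 to 14558318 in PA2, so every PA1 library was deeper, and 3 reads, taken as the lowest level to which a fold can refer, corresponded to 0.18 to 0.227 CPM. With reads of the 10 libraries thinned to 1 total, an alternative chosen after seeing the data, 786 genes passed instead of 779 and 737 of them were shared. Log2 differences are PA2 minus PA1 of log2(CPM + 1) values, so that genes of low level show less than their full change, and adjusted p-values are from limma with Benjamini-Hochberg adjustment over 18428 genes. Nothing in the labels says how the embryos relate to each other, so p-values measure only the spread between embryos of this series. That spread is pooled within the 16 groups of all 68 libraries. Without the embryo as a block, the fit treats the 2 arches of 1 embryo as independent. Embryo 4 stood apart by transcripts of yolk sac endoderm, and PA2 of embryo 2 by few transcripts of heart muscle. Both are described with the cell type markers.

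The targeted gene was read first. Hoxa2 (ENSMUSG00000014704, chromosome 6, 52162417 to 52164831, minus strand, mm10) stood at 0.275, 0.628, 0.6, 0.196 and 0.19 CPM in PA1 of embryos 1 to 5 and at 88.2, 113, 111, 88.8 and 87.2 CPM in PA2. PA2 thus lay far above PA1 in all 5 embryos, as it does in wildtype, where the means were 0.162 CPM in PA1 and 47.5 CPM in PA2. The log2 difference was 6.17 (SE 0.16, adjusted p 9.7e-39), the largest among the genes tested. By itself, a high Hoxa2 total in PA2 does not settle whether the embryos carry the genotype of their label. The files give 1 total per gene, which does not show whether a part of the transcript is missing or changed, so the embryos are called by their label throughout.

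Transcripts of the anterior Hox clusters were higher in PA2, and none was lower. Of 19 genes of the list, 10 passed the filter on low values, and 7 of them were higher, against 3.13% higher and 4.23% in either direction among all genes tested. Their median log2 difference was 0.80, or 1.14 with genes at 0 in PA1 set to their bound, against 0.00 over all genes tested. Hoxaas2, a noncoding transcript that starts upstream of Hoxa2 on the other strand, stood at 0 to 0.24 CPM in PA1 and 18.7 to 26.7 CPM in PA2 (log2 difference 4.35, SE 0.14, adjusted p 2.9e-33). Hoxb2, the Hoxb cluster gene of the same paralogue group, had 4.13 ± 0.881 CPM in PA2 against 0.246 ± 0.144 CPM in PA1 (here and below SD, n = 5 each; log2 difference 2.03, adjusted p 1.1e-16). Hoxa3, best known from the third arch, stood at 2.1 ± 0.587 CPM in PA2 and at 0.0497 ± 0.0508 CPM in PA1 (1.54, adjusted p 2.9e-14). Hoxd1 and Hoxb3os also passed, at log2 differences of 0.69 and 0.67. The strandedness of counting is not given in the sources used here, so reads of Hoxa genes and of their antisense transcripts cannot be told apart where they overlap. The groups did not overlap in any of the 7 genes, and 4.54% of all genes tested had 5 PA2 libraries above all 5 PA1 libraries. Hoxb1, an early hindbrain gene, did not pass in limma (log2 difference 0.51, adjusted p 0.26) but did in DESeq2 (adjusted p 0.039), and Hoxd1 did not pass without embryo 2 or 4.

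The genes given as markers of the arches at this stage were Fgf3 and Pax1 for PA2 and Lhx8 for PA1. Fgf3 is a fibroblast growth factor made in pouch endoderm and hindbrain, Pax1 is a paired box transcription factor of pouch endoderm, and Lhx8 is a LIM homeobox transcription factor of jaw mesenchyme. The windows upstream of their RefSeq starts are shown with that of Hoxa2, because these are the genes by which the arches are told apart here. Each is 250 bases before the RefSeq start in GRCm38.p6 (mm10), 5′ to 3′ on the gene's strand, from RefSeq's table, which held such a window for 9 of 12 symbols looked up. Capitals mark matches on either strand to TGACAG (a MEIS core), TGATNNAT (a HOX-PBX core) or TAATTA (a homeodomain core).
Hoxa2 (chr6:52164832-52165081, minus strand): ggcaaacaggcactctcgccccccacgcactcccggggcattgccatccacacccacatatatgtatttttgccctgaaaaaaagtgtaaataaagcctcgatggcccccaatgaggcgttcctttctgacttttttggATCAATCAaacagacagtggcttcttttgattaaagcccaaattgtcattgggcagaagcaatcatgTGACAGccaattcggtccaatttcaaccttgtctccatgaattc
Fgf3 (chr7:144838362-144838611, plus strand): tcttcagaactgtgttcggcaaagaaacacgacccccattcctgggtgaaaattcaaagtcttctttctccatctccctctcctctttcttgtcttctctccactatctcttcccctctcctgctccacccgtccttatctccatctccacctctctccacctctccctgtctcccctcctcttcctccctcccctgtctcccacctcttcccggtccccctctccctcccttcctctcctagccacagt
Pax1 (chr2:147364744-147364993, plus strand): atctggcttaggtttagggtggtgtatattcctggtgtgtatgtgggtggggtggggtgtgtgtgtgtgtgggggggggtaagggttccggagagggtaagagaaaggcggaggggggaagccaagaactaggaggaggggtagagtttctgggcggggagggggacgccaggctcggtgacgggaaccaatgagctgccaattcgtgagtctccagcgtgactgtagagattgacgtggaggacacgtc
Lhx8 (chr3:154330561-154330810, minus strand): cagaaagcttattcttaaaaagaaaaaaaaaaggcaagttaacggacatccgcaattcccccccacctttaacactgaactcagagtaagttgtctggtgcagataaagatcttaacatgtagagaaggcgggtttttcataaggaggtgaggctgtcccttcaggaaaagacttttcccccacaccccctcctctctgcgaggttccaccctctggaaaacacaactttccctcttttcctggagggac
The Hoxa2 window held 1 match to the HOX-PBX core at -111 and 1 to the MEIS core at -44, counted to the first base of the match from the start. No match to the 3 motifs lay in the windows of Fgf3, Pax1 and Lhx8. Over 32851 windows of this length, 15.9% held the MEIS core, 7.68% the HOX-PBX core and 4.84% the homeodomain core. A match of letters is a description and not a binding site. The windows of Fgf3 and Pax1 lie inside the GENCODE gene spans given below, and that of Lhx8 overlaps its span, so they precede the RefSeq start and not the outermost start of the annotation.

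All 3 markers parted the arches in each embryo labelled Hoxa2-/-. Fgf3 (ENSMUSG00000031074, chromosome 7, 144838083 to 144844436, plus strand) stood at 12.4, 7.42, 4.46, 4.41 and 6.92 CPM in PA2 of embryos 1 to 5 and at 0, 0, 0.06, 0.0654 and 0 CPM in PA1. Over the 5 libraries of each arch this was 512 reads in PA2 and 2 in PA1, a ratio of 283 in CPM with a 95% exact counting interval of 77.8 to 2340. The lowest PA2 library thus had many times the level of the highest PA1 library (log2 difference 2.90, SE 0.26, adjusted p 8.6e-13). Pax1 (ENSMUSG00000037034, chromosome 2, 147361925 to 147393295, plus strand) stood at 69.6, 50.9, 44.6, 37.3 and 68.9 CPM in PA2 and at 2.75, 1.57, 1.8, 4.58 and 3.17 CPM in PA1. PA2 was 19.6-fold higher by the means, with embryo 4 the lowest in PA2 and the highest in PA1 (log2 difference 3.89, SE 0.26, adjusted p 3.8e-18). Lhx8 (ENSMUSG00000096225, chromosome 3, 154306294 to 154330659, minus strand) stood at 7.07, 10.7, 9.37, 8.39 and 5.97 CPM in PA2 and at 65, 76.3, 67.5, 65.6 and 58.1 CPM in PA1. It was 8.01-fold higher in PA1 by the means, with no overlap (log2 difference -2.88, SE 0.33, adjusted p 1.7e-09).

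**Figure D1:**
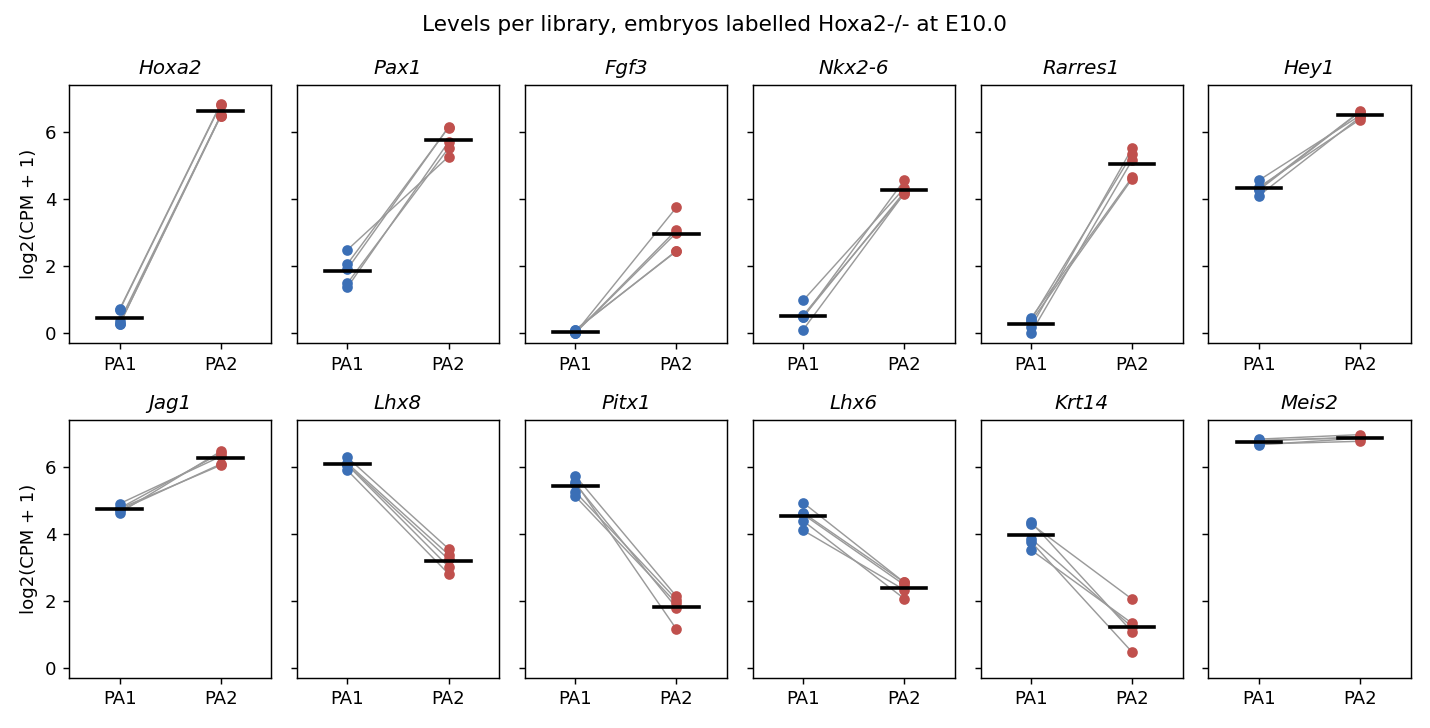
Levels of 12 genes in PA1 (blue) and PA2 (red) of the 5 embryos labelled Hoxa2-/- at E10.0, as log2(CPM + 1), with 1 point per library, a grey line joining the arches of 1 embryo and a black bar at the mean. The first 7 genes were higher in PA2 and the next 4 in PA1 in all 5 embryos, while the lines of Meis2 run almost level.

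Over all genes tested, 779 passed (4.23%), 577 of them higher in PA2 (3.13%) and 202 lower (1.1%). The median log2 difference was 0.72 among those higher in PA2 and -0.51 among those lower. In 573 of the 779 genes no library of one arch overlapped the other arch, and 740 had the same sign in all 5 embryos. Of all genes tested, 4.54% had the PA2 libraries all above PA1 and 2.01% all below, and 14.4% were higher and 14.4% lower in PA2 of every embryo. A log2 difference of at least 1 was reached by 142 of the genes higher in PA2 (0.771% of those tested) and by 31 of those lower (0.168%). With the embryo as a block, 1512 genes passed (8.2%), 928 higher (5.04%) and 584 lower (3.17%), and 772 of the 779 were among them in the same direction. Without embryo 4, 438 genes passed, of which 429 were among the 779. Without embryo 5 the count was 433. The split of higher and lower genes moved with single libraries: it was 636 and 517 without PA1 of embryo 1, 380 and 104 without PA2 of embryo 1, and 445 and 84 without both arches of embryo 3. Among the lists below, leaving out embryo 4 left 7 lower genes of 9 in the jaw list, 5 higher of 7 in the Hox list, 7 higher and 1 lower in the arch mesoderm list and 5 higher and 2 lower in the pharyngeal endoderm list. It took the crest mesenchyme list from 3 genes to 1, the surface epithelium list from 5 to 3, the crest glia and ganglion lists from 2 to 1 each, and the Wnt ligand and heart muscle lists from 1 to 0. The FGF ligand list kept 5 higher and 1 lower gene, the T-box list 1 higher and 3 lower and the BMP list 3 higher. The list of Eya and Dach genes kept 1 higher, and that of genes known from work on Hoxa2 kept 1 higher and 4 lower.

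Besides Hoxa2, Hoxaas2, Pax1, Fgf3 and Nkx2-6, the largest differences toward PA2 by the rule for named genes were those of Rarres1, Hmx1, Pdlim3, Plet1 and Fyb2. Rarres1, a gene named for its response to retinoids, stood at 34.6, 39.4, 24, 23.2 and 44.5 CPM in PA2 and at 0, 0.314, 0.36, 0.262 and 0.127 CPM in PA1. PA2 was 156-fold higher by the means, and the lowest PA2 library lay far above the highest PA1 library (log2 difference 4.78, SE 0.30, adjusted p 9e-19). Hmx1, a homeobox gene of the facial and ear region, stood at 8.61 to 18.1 CPM in PA2 and 0.691 to 1.46 CPM in PA1 (log2 difference 2.84, adjusted p 1.1e-09). Pdlim3, which codes for a muscle protein that binds actinin, stood at 18.4 to 40.3 CPM in PA2 and 2.64 to 5.52 CPM in PA1 (2.56, adjusted p 2e-12). The arches did not overlap in any of these genes, which was one of the criteria by which they were named. Plet1, an epithelial surface protein gene, stood at 7.55 to 12.5 CPM in PA2 and 0.72 to 1.02 CPM in PA1 (2.54, adjusted p 5e-12). Fyb2 stood at 3.02 to 8.37 CPM in PA2 and at most 0.254 CPM in PA1 (2.47, adjusted p 2.9e-12).

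Of 13 genes of pharyngeal endoderm tested, 6 were higher in PA2, 2 were lower and 5 did not pass, against 3.13% higher and 1.1% lower among all genes tested. Their median log2 difference was 0.71. Nkx2-6, a homeobox gene of the caudal pouches and adjacent mesoderm, stood at 16.9, 16.8, 18.9, 17.4 and 22.5 CPM in PA2 and at 0.0686, 0.44, 0.96, 0.393 and 0.381 CPM in PA1. It was 41.2-fold higher in PA2 by the means (log2 difference 3.77, SE 0.28, adjusted p 8.8e-16). Pax9, the paralogue of Pax1, stood at 6.24 ± 2.19 CPM in PA2 and at 1.48 ± 0.326 CPM in PA1 (1.51, adjusted p 8.7e-09). Tbx1, a T-box gene of pouch endoderm and arch mesoderm, was 2.15-fold higher by the means with overlapping groups (1.06, adjusted p 0.0029), and Ripply3, which codes for a repressor that acts on Tbx1, also passed (0.62, adjusted p 0.031) but was lost whichever of the 5 embryos was left out.

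Hhex, a homeobox gene of foregut and thyroid, passed at a log2 difference of 1.21 (adjusted p 0.0073), but PA2 of embryos 1 and 5 stood at 17.1 and 12.8 CPM and PA2 of embryos 2, 3 and 4 at 4.33, 4.38 and 8.39 CPM, while PA1 ran from 2.03 to 4.86 CPM. Without PA2 of embryo 1 the log2 difference was 0.96 and did not pass, and the same holds without both arches of embryo 5. Pax8 and Nkx2-1, which mark the thyroid bud with Hhex, were also highest in PA2 of embryo 1, at 19.6 and 8.5 CPM. Pax8 passed (log2 difference 2.39, adjusted p 0.00074), with overlap at embryo 3, and Nkx2-1 did not (1.11, adjusted p 0.22). The 2 endodermal genes lower in PA2 were Foxa2, a forkhead gene of ventral endoderm, and Shh, which codes for the hedgehog ligand. Foxa2 stood at 1.31 ± 0.244 CPM in PA2 and at 3.13 ± 0.809 CPM in PA1 (-0.82, adjusted p 0.0036), and Shh at 1.19 ± 0.402 and 2.76 ± 0.438 CPM (-0.79, adjusted p 0.0074), with no overlap in either, though Shh did not pass without embryo 3 or 5. An arch with fewer cells of a type and one with less RNA per cell of it cannot be told apart in such whole-arch libraries.

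Among fibroblast growth factor ligands, 6 of 15 tested were higher in PA2 and 1 was lower, with a median log2 difference of 0.19. Among all genes tested, 3.13% were higher and 1.1% lower, and the limma counts of each later list under this label are to be read against these shares. Fgf4 stood at 6.39, 5.02, 0.831, 3.02 and 1.49 CPM in PA2 and at 0 in all 5 PA1 libraries. With 241 reads in PA2 and none in PA1, it was at least 88.7-fold higher in PA2, taking 3 reads over the 5 PA1 libraries as the floor (adjusted p 2.3e-06). Fgf15 stood at 2.03 to 7.63 CPM in PA2 and 0.251 to 1.14 CPM in PA1 (log2 difference 1.85, adjusted p 1.4e-07), and Fgf20 at 1.6 ± 0.491 and 0.125 ± 0.0706 CPM (1.19, adjusted p 1.4e-10). Fgf1 and Fgf13 passed at 0.70 and 0.39, but Fgf1 not in edgeR (adjusted p 0.062) nor without embryo 1, 3, 4 or 5, and Fgf13 not without embryo 1, 2, 3 or 5. The ligand that was lower in PA2 was Fgf8, the ectodermal signal that patterns jaw mesenchyme. It stood at 13.8, 6.26, 7.33, 6.69 and 12.1 CPM in PA2 and at 29, 29.5, 25.9, 30.1 and 38.6 CPM in PA1. PA1 was 3.31-fold higher by the means with no overlap (log2 difference -1.68, SE 0.19, adjusted p 9.9e-10). Of 16 genes for FGF receptors and for feedback and target genes of the pathway, 0 passed in limma and edgeR, 1 passed in DESeq2 and 3 had an unadjusted p under 0.05 in limma. With the embryo as a block, Spry1, a feedback inhibitor gene, was higher in PA2 (log2 difference 0.49, adjusted p 0.032 with the block and 0.14 without) and Fgfr2, a receptor gene, lower (-0.43, adjusted p 0.023 and 0.072). Dusp6, which codes for a phosphatase induced by the pathway, stood at 176 CPM in PA1 and 159 CPM in PA2 by the means, and Etv5, a target transcription factor gene, at 126 and 119 CPM.

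A ligand gene and target genes of the Notch pathway, Jag1, Hey1 and Heyl, were higher in PA2. Jag1, which codes for a ligand, stood at 83.4, 64.8, 77.9, 66.4 and 86.7 CPM in PA2 and at 26, 25.8, 28.7, 24.9 and 23.6 CPM in PA1. Hey1, a target gene of the pathway, stood at 95.8, 85.7, 96.7, 81.6 and 88.7 CPM in PA2 and at 18.2, 16.1, 18.7, 19.4 and 22.5 CPM in PA1. Both lay apart in all 5 embryos, at log2 differences of 1.51 (SE 0.21, adjusted p 2.2e-07) and 2.19 (SE 0.15, adjusted p 9.3e-17). Heyl, a related target gene chosen after its values were seen, stood at 20.2 ± 1.46 CPM in PA2 and at 4.84 ± 1.23 CPM in PA1 (1.89, adjusted p 8.3e-09). The ligand genes Jag2 and Dll1 and the receptor genes Notch1, Notch2 and Notch3, also looked up after the data were seen, did not pass, with log2 differences from -0.26 to 0.50. Hes1, another target gene looked up in the same way, did not pass either (0.22, adjusted p 0.12).

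Jag1 and Hey1 stood in a list of 17 genes of the dorsoventral axis of the arches, the endothelin, Dlx and Hand genes among them, of which 3 were higher in PA2 and 0 lower. The third was Edn1, which codes for the endothelin ligand, at 14.7 ± 4.74 CPM in PA2 and 6.81 ± 1.19 in PA1 (log2 difference 0.97, adjusted p 0.0051). The 6 Dlx genes, homeobox genes that pattern both arches along this axis, had log2 differences from -0.14 to 0.38, and Ednra, the receptor gene of the pathway, 0.02. None of them passed. Hand2, a target of endothelin in ventral mesenchyme, had no overlap between the arches but did not pass (-0.51, 95% interval -1.03 to 0.01). For Dlx5 the interval of the log2 difference ran from -0.61 to 0.46, so a moderate difference in either direction is within it.

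Muscle progenitors of the arch core gave 7 higher genes and 1 lower gene out of 10 tested, with a median log2 difference of 0.96. Tcf21, a transcription factor gene of head muscle progenitors, stood at 17.8, 14.3, 25.1, 17.7 and 19.2 CPM in PA2 and at 5.29, 2.89, 4.68, 6.48 and 5.27 CPM in PA1 (log2 difference 1.75, SE 0.22, adjusted p 2.2e-08). Its partner gene Msc was at 10.6 ± 2.26 and 3.67 ± 2.04 CPM (1.41, adjusted p 0.00039), Isl1, a gene of second heart field and arch mesoderm, at 65.9 ± 6.56 and 31.7 ± 2.85 CPM (1.03, adjusted p 3.6e-06), and Meox2 at 6.85 ± 1.04 and 1.46 ± 0.338 CPM (1.68, adjusted p 3.1e-07). The groups did not overlap in these 4 genes. Summed heart muscle transcripts, given below, were also higher in PA2 of embryos 1, 3, 4 and 5 than in any PA1 library. Tbx1, described above, also belongs to this list. Lhx2 and Myf5, an early muscle regulator, passed at log2 differences of 0.89 and 0.82, Lhx2 not without embryo 2 or 3 nor without 5 of the 10 libraries left out singly. Myod1, a later muscle regulator, was lower in PA2 in edgeR (adjusted p 0.026) and DESeq2 (adjusted p 0.033) and did not pass in limma: 32 reads in PA1 against 3 in PA2 made a ratio of 9.66 with an exact counting interval of 3.02 to 49.3 (adjusted p 0.095).

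Among homeobox genes of the jaw, 9 of 14 tested were lower in PA2 and 0 higher, with a median log2 difference of -0.97, against 1.1% lower among all genes tested. Pitx1, a gene of oral ectoderm and mandibular mesenchyme, stood at 43.8, 51.8, 33.6, 36.8 and 45.1 CPM in PA1 and at 2.45, 3.37, 2.79, 3.09 and 1.22 CPM in PA2. It was 16.3-fold higher in PA1 by the means (log2 difference -3.61, SE 0.28, adjusted p 1.3e-15). Every PA1 library lay far above every PA2 library. Lhx6, which acts with Lhx8 in jaw mesenchyme, stood at 16.1 to 29.3 CPM in PA1 and 3.16 to 4.83 CPM in PA2 (-2.13, adjusted p 1.3e-08).

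Msx1, Msx2 and Alx4 passed at smaller differences. Msx1, a homeobox gene that responds to BMP signals, stood at 286 ± 22.1 CPM in PA1 and 140 ± 21.7 in PA2 (-1.04, adjusted p 3.6e-05), and Msx2 at 93.7 ± 12.3 and 49.8 ± 10.3 CPM (-0.92, adjusted p 0.00041). Alx4 stood at 16.4 ± 3.03 CPM in PA1 and 7.7 ± 1.52 in PA2 (adjusted p 0.0093), but did not pass without embryo 2, 3 or 4. Barx1, a gene of proximal jaw mesenchyme, was not shown to differ: PA1 ran from 181 to 266 CPM and PA2 from 161 to 219 CPM, and its log2 difference of -0.23 had an interval from -1.21 to 0.74. Gsc, Nkx3-2, Alx1 and Otx2 did not pass either.

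T-box genes were divided between the arches. Tbx2 and Tbx3, repressors of ventral mesenchyme, and Tbx22, a gene of palate and tongue mesenchyme, were lower in PA2, and Tbx1 and Tbx4 were higher, 5 of the 9 tested. Tbx2 stood at 129, 95.6, 83.4, 84.1 and 86.6 CPM in PA1 and at 54, 30, 38, 27.7 and 27.3 CPM in PA2 (log2 difference -1.44, adjusted p 0.00031). Tbx3 stood at 60.1 ± 8.66 CPM in PA1 and 26.3 ± 7.55 in PA2 (-1.19, adjusted p 0.0016). Tbx22 stood at 2.27 to 7.22 CPM in PA1 and at most 0.137 CPM in PA2 (-2.11, adjusted p 3.2e-10). Embryo 1 was the highest in both arches for Tbx2 and Tbx3, and the arches did not overlap in these 3 genes. Tbx4 stood at 1.03 to 6.1 CPM in PA2 and 0.982 to 1.92 CPM in PA1 with overlap (1.05, adjusted p 0.0053), and without embryo 4 or 5 it did not pass (0.87 and 0.89).

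Of 17 genes of surface epithelium, 4 were lower in PA2 and 1 was higher, with a median log2 difference of -0.33. Krt14, a keratin of basal epithelium, stood at 10.4, 13.4, 12.5, 19.3 and 18.5 CPM in PA1 and at 1.5, 1.31, 0.378, 1.1 and 3.12 CPM in PA2, 10-fold apart by the means (log2 difference -2.73, SE 0.22, adjusted p 1.8e-14). Fam83f stood at 20.2 to 32.1 and 3.47 to 7.33 CPM (-1.99, adjusted p 2.5e-10). Krt17 and Trp63, a basal keratin and the transcription factor gene of stratified epithelium, passed at -0.74 and -0.63. Epcam and Cdh1, adhesion genes of epithelium in general, did not pass: Epcam stood at 80.4 CPM in PA1 and 101 CPM in PA2 by the means, and Cdh1 at 98 and 138 CPM. With the embryo as a block Epcam was higher in PA2 (log2 difference 0.31, adjusted p 0.023). Grhl1 was the higher gene (0.68, adjusted p 0.043). Trp63 was lost whichever of the 5 embryos was left out, and Grhl1 without embryo 1, 2, 4 or 5.

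Outside the lists, AI606473 and Slitrk6 were among the genes with the largest differences toward PA1, without overlap of the arches. The transcript AI606473 stood at 11.2 to 18.5 CPM in PA1 and 0.407 to 0.68 CPM in PA2 (-3.32, adjusted p 7.3e-13). Slitrk6, a membrane protein gene of developing neurons and sense organs, stood at 6.93 to 22 CPM in PA1 and 1.49 to 3.71 CPM in PA2 (-2.13, adjusted p 2.3e-06).

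Among genes of the crest mesenchyme that fills both arches, 3 of 13 passed. Prrx1 (log2 difference -0.67, adjusted p 0.03) and Tfap2c (-0.69, adjusted p 0.0021) were lower in PA2 and Tfap2a was higher (0.44, adjusted p 0.039). Twist1, a general gene of head mesenchyme, stood at 39.6 CPM in PA1 and 40.5 CPM in PA2 by the means, Sox9, the cartilage regulator, at 104 and 98.3 CPM, and Pdgfra at 144 and 154 CPM. Of 9 Meis, Pbx and Pknox genes, which code for partners of Hox proteins, Meis1 was 2.02-fold higher in PA2, at 136 ± 4.86 against 67.1 ± 6.28 CPM (1.01, adjusted p 1.4e-07), and Meis3 was higher by 0.46 (adjusted p 0.008). Of these calls Prrx1 was lost whichever of the 5 embryos was left out, Tfap2a without embryo 1, 2, 4 or 5 and Meis3 without embryo 5.

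The shares in the following lists are to be read against 4.23% of all genes tested, or 8.2% with the block. In the hedgehog list Shh alone passed of 13 genes, and Ptch1, the receptor gene that the signal induces, stood at 64.5 CPM in PA1 and 54.1 CPM in PA2 (log2 difference -0.25, adjusted p 0.42). With the embryo as a block, Foxf1 and Foxf2, forkhead genes that respond to hedgehog in arch mesenchyme, were also lower in PA2, at -1.16 and -0.80 (adjusted p 0.0041 and 0.02 with the block, 0.077 and 0.093 without). In the BMP list 4 of 16 were higher in PA2 and 0 lower: the target gene Id4 (1.13, adjusted p 1.4e-06), the ligand gene Bmp6 (0.93, adjusted p 0.0086) and the antagonist genes Grem1 (0.81, adjusted p 0.0022) and Chrdl1 (0.80, adjusted p 0.00011). Bmp4, the main ligand of arch epithelium, stood at 27.3 and 23.5 CPM by the means and did not pass. In the retinoid list 2 of 15 were higher, Rdh10, which makes retinal (0.63, adjusted p 0.0013), and Cyp26b1, which breaks down retinoic acid (0.92, adjusted p 0.0066). The count of higher genes in that list was 5 with the block. Of 12 Wnt ligand genes, Wnt4 was lower in PA2 (-0.60, adjusted p 0.044). Of 10 genes of the Eya and Dach families and their partners, Eya1 (0.65, adjusted p 2e-06) and Dach1 (0.67, adjusted p 0.044) were higher. Of 13 forkhead genes, Foxc1, Foxi3 and Foxl2 were higher at 0.61, 0.88 and 0.65, and the counts were 5 higher and 3 lower with the block. Wnt4 and Dach1 were lost whichever of the 5 embryos was left out, and Wnt4 also with a pseudocount of 0.25 (adjusted p 0.053). The 3 forkhead genes did not pass without embryo 3, nor Foxc1 without embryo 2, Bmp6 without embryo 1 or 4, Cyp26b1 without embryo 1 or 5 and Rdh10 without embryo 5.

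**Figure D2:**
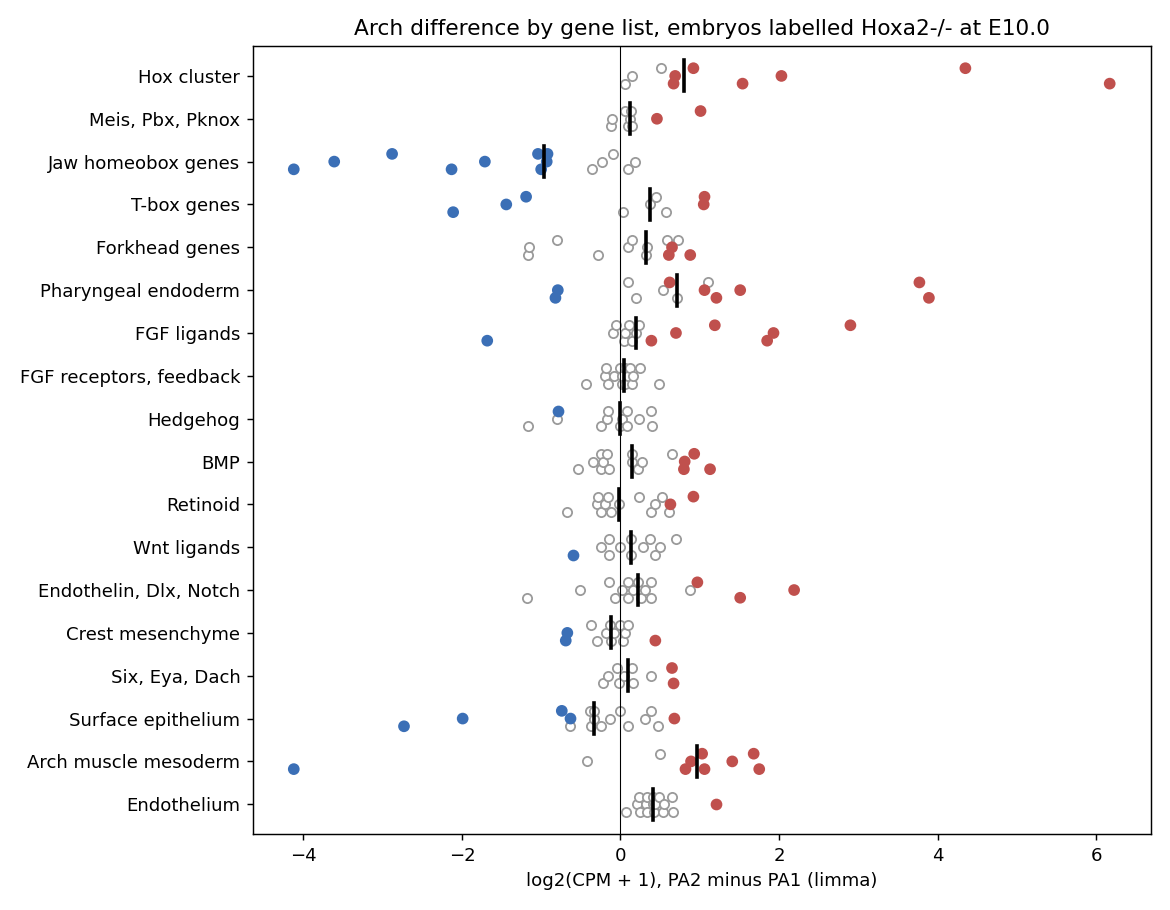
Log2(CPM + 1) difference of PA2 minus PA1 in embryos labelled Hoxa2-/- at E10.0, with 1 point per gene tested in 18 of the gene lists and a black bar at each list's median. Filled points passed an adjusted p of 0.05 in limma (red higher in PA2, blue lower) and open points did not: the jaw homeobox genes have filled points on the left only and the Hox cluster on the right only, while no FGF receptor or feedback gene is filled.

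Markers of other cell types that a cut arch can hold were summed per library. The 14 yolk sac endoderm genes summed to 46.9 CPM in PA1 and 313 CPM in PA2 of embryo 4, and to 3.3 to 5.51 CPM in the other 8 libraries. The 17 heart muscle genes summed to 77.5, 11.8, 61.3, 137 and 55.7 CPM in PA2 and to 20.9, 10.1, 21.9, 8.05 and 14.3 CPM in PA1. PA2 of embryo 2 thus lay at the level of PA1, and the other 4 PA2 libraries above every PA1 library. All 17 cardiac genes had positive log2 differences, with a median of 0.89, and 1 passed in limma, 3 in edgeR and 6 in DESeq2. The gene that passed in limma was Gata5 (log2 difference 1.67, adjusted p 0.0495), which did not pass without embryo 1, 3, 4 or 5. Myl2 was at 0 in all 5 PA1 libraries, and Gata4, Gata6 and Actc1 had differences of 1.40, 1.40 and 2.51 that did not pass in limma. In edgeR and DESeq2 Gata4 passed (adjusted p 0.039 and 0.016), as did Actc1 (0.038 and 0.00057).

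Sums of endothelial genes ran from 283 to 378 CPM in PA1 and from 337 to 525 CPM in PA2, where embryo 2 was again the lowest. Gja4, an arterial connexin gene, passed of 17, at 12.3 ± 2.9 CPM in PA2 and 4.81 ± 1.29 in PA1 (adjusted p 0.0035), and 4 passed with the block. Erythroid sums ran from 2310 to 8150 CPM in PA1 and from 1160 to 4070 CPM in PA2, with embryo 4 the highest in both, and macrophage sums from 10.2 to 20.8 and from 6.26 to 15 CPM. Of the 12 erythroid, 13 macrophage, 14 yolk sac, 4 neural tube and 9 stress response genes tested, 0 passed in limma, edgeR or DESeq2. At an unadjusted p under 0.05 in limma there were 0, 1, 0, 1 and 0 of them. Of 17 ganglion neuron genes, Isl1, which the mesoderm list also holds, and Nefl, a neurofilament gene, were higher in PA2. Sums of the list ran from 106 to 125 CPM in PA1 and from 143 to 173 CPM in PA2. Isl1, at the levels given with the mesoderm list, made up most of the gap between the mean sums. In the ganglion list 4 genes passed in edgeR and 5 in DESeq2, and 1 in limma without embryo 1, 2, 3 or 4. Of 4 crest glia genes, Erbb3 and Ngfr were higher, at 0.84 and 0.93, and Sox10, the defining gene, stood at 0.322 CPM in PA2 and 0.281 CPM in PA1 by the means. Erbb3 and Ngfr did not pass without embryo 1 or without embryo 5, nor Ngfr without embryo 2 or 4. Crest glia sums ran from 19 to 21.7 CPM in PA1 and from 26.1 to 41.3 CPM in PA2. Of 2 ear genes tested Pax8 passed, which the thyroid bud also expresses. The part of these cells in the arch differences was not tested.

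**Figure D3:**
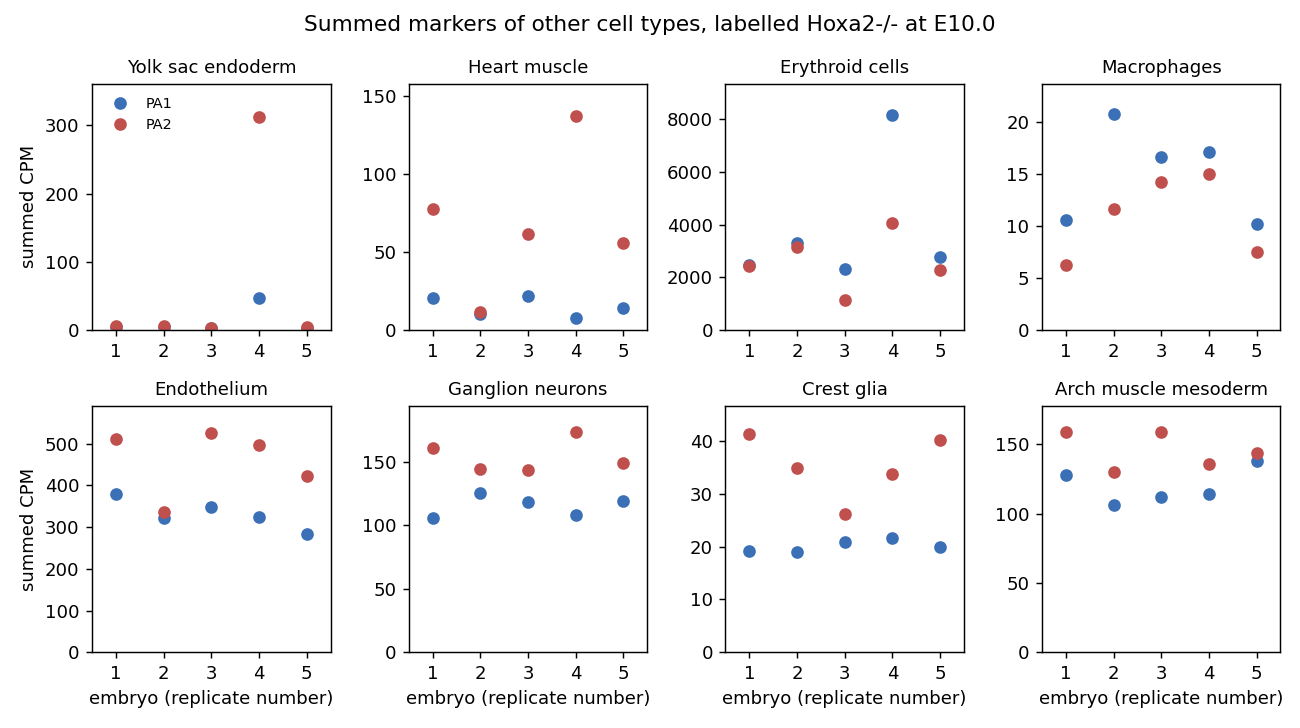
Summed CPM of 8 marker lists in PA1 (blue) and PA2 (red) of the 5 embryos labelled Hoxa2-/- at E10.0, plotted by embryo. Yolk sac endoderm markers stand out in embryo 4 in both arches, and the heart muscle markers of PA2 are near those of PA1 in embryo 2 alone.

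The comparisons with wildtype, E9.5 and E10.5 that follow share the 10 libraries labelled Hoxa2-/- of E10.0. Against wildtype embryos of the same stage, 774 of the 779 genes had an arch difference of the same sign (99.4%). In wildtype, 1095 genes passed (5.94%), and 548 genes passed under both labels in the same direction, 70.3% of the 779 and 50.0% of the 1095. Of the 173 genes that passed with a log2 difference of at least 1 in either direction under the label Hoxa2-/-, 168 also passed in wildtype in the same direction, 97.1% of them. Of the 249 such genes in wildtype, 200 (80.3%) passed under the label. The 20 genes with the largest differences by the rule for named genes, 10 in each direction, all passed in wildtype too. The test of the difference between the labels' arch differences gave no adjusted p below 1 in any of these 20, and their differences ran from -0.43 to 1.07. A missed threshold does not show that they are equal: for Pax1 the interval of the difference was -0.67 to 0.78, for Fgf3 -0.56 to 0.93 and for Lhx8 -0.58 to 1.28.

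The 9 jaw homeobox genes that passed were each nearer to 0 than in wildtype. For Pitx1 the log2 difference was -3.61 under the label and -4.68 in wildtype, with PA2 means of 2.58 and 0.665 CPM and PA1 means of 42.2 and 40.9 CPM. The difference of 1.07 (95% interval 0.29 to 1.84) had an unadjusted p of 0.0082 and an adjusted p of 1. For Lhx6 it was -2.13 and -2.59, and 8 of the 9 genes had a higher PA2 mean under the label than in wildtype. In none of the 9 was the adjusted p of the difference below 1, and in 1 the unadjusted p was below 0.05. The shares of all genes tested that were nearer to 0 or had a higher PA2 mean under the label were not counted. More genes passed between the arches in wildtype (1095) than under the label (779), so these counts do not show a trait of the jaw genes. On the PA2 side, Meis1 stood at 136 CPM under the label and 186 CPM in wildtype PA2 (difference of the log2 differences -0.38, adjusted p 1), and Hoxa2 itself was the other way, at 6.17 against 5.38 (0.78, 95% interval 0.34 to 1.23, unadjusted p 0.00089, adjusted p 1).

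A list of 15 genes known from work on Hoxa2 as higher or lower in PA2 when it is lost was drawn from background knowledge. It had 1 higher and 5 lower genes in PA2 under the label, and 4 and 5 in wildtype. Among all genes tested, 4.23% passed in either direction under the label and 5.94% in wildtype. These counts do not test a difference between the labels, and in the test that does, Meis2 alone of this list passed. Meis1 was the higher gene, and Pitx1, Lhx6, Lhx8, Alx4 and Msx1 were the lower ones.

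For 3 genes the arch difference differed between the labels (0.0163% of those tested), and in each it was smaller under the label Hoxa2-/-. Meis2, a TALE homeobox gene and Hox partner, stood at 109, 101, 112, 99.5 and 108 CPM in PA1 and at 115, 107, 123, 114 and 117 CPM in PA2, an overlap of the arches with PA2 slightly higher in each embryo. Its log2 difference was 0.12 (adjusted p 0.27) against 0.62 in wildtype, where the means were 104 and 160 CPM (difference -0.49, adjusted p 0.0013). Kcna5, a potassium channel gene, stood at 8.9 ± 1.35 CPM in PA2 and 3.36 to 4.84 CPM in PA1 without overlap, a log2 difference of 1.02 (adjusted p 3.5e-05) that remains past the threshold, against 2.70 in wildtype with means of 29.7 and 3.64 CPM (difference -1.68, adjusted p 9.4e-05).

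The transcript 3110099E03Rik stood at 0.748, 3.09, 3.02, 2.13 and 1.02 CPM in PA2 and at 0.549, 1.44, 1.2, 1.24 and 0.761 CPM in PA1, with PA2 higher in each embryo. Its log2 difference of 0.49 passed with the embryo as a block (adjusted p 0.027) and not without (0.34), against 2.86 in wildtype (difference -2.36, adjusted p 0.00035). That difference did not pass in edgeR or DESeq2 (adjusted p 1 in both), with a pseudocount of 0.25 (0.22) or in a fit of the compared groups alone (0.13), where Meis2 did not pass either (0.13). Meox1, a mesoderm homeobox gene known as a target of Hoxa2, did not pass, with a log2 difference of 0.50 under the label and 2.17 in wildtype (difference -1.67, unadjusted p 0.00067, adjusted p 1), chosen here after its values were seen. In a fit of the compared groups alone 1 gene passed, Kcna5, while 2 passed in edgeR, in DESeq2 and with a pseudocount of 0.25, and 5 with a pseudocount of 5.

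**Figure D4:**
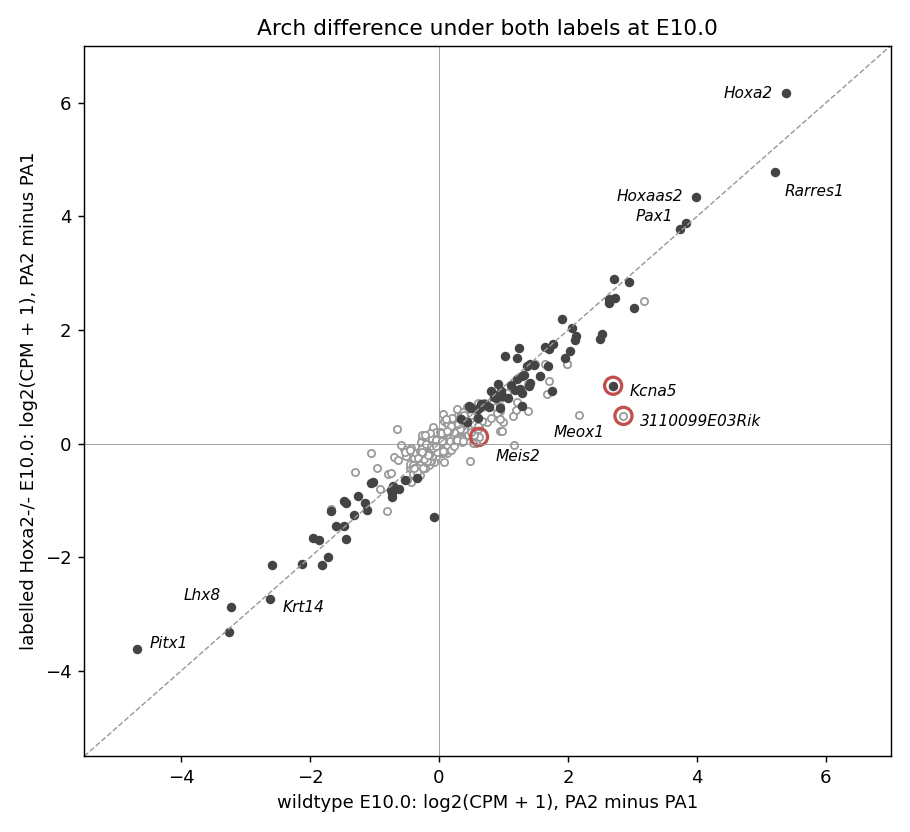
Log2(CPM + 1) difference of PA2 minus PA1 at E10.0 in wildtype embryos (x axis) and in embryos labelled Hoxa2-/- (y axis) for the genes reported here of the lists and of the rule for named genes, with the line of equality dashed. Filled points passed in embryos labelled Hoxa2-/-, and red rings mark Meis2, Kcna5 and 3110099E03Rik, whose arch difference differed between the labels and which lie below the line.

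Against E9.5 within the same label, the arch difference changed for 17 genes (0.0923%), 2 toward PA2 (0.0109%) and 15 toward PA1 (0.0814%), and 26 changed with the embryo as a block (0.141%). At E9.5, 1766 genes parted the arches (9.58%). Of the 17 genes, 15 passed between the arches at E10.0 and 5 at E9.5, and 12 of the 15 that moved toward PA1 were lower in PA2 at E10.0. Toward PA1, the log2 difference of AI606473 went from -0.81 at E9.5 to -3.32 at E10.0 (change -2.51, adjusted p 0.0017) and that of Slitrk6 from -0.06 to -2.13 (-2.07, adjusted p 0.037). The PA1 means of E9.5 and E10.0 were 2.21 and 14.1 CPM for AI606473 and 1.99 and 14.2 CPM for Slitrk6.

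Jaw genes and a signal for them were among the others. Lhx6 went from -0.37 to -2.13 (change -1.76, adjusted p 0.027), with its PA1 mean at 5.6 CPM at E9.5 and 22.3 CPM at E10.0, and Tbx22 from -0.26 to -2.11 (-1.85, adjusted p 0.0025). Fgf8 went from -0.40 to -1.68 (-1.28, adjusted p 0.027): its PA2 mean was 19 CPM at E9.5 and 9.25 CPM at E10.0, and its PA1 mean 24.2 and 30.6 CPM. Lhx8 did not pass (change -1.40, adjusted p 0.75), and neither did Fgf3 (-1.12, adjusted p 0.75) or Pax1 (0.80, adjusted p 1).

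Meox1 and Fgf4 were higher in PA2 at E9.5 and less so at E10.0. Meox1 stood at 8.5 CPM in PA2 at E9.5 and 1.1 CPM at E10.0 by the means, with log2 differences of 2.56 and 0.50 (change -2.06, adjusted p 0.048). Fgf4 stood at 15.8 and 3.35 CPM in PA2 by the means and at 0.0837 and 0 CPM in PA1, with a change of -1.85 (adjusted p 0.047) on the log2(CPM + 1) scale. In edgeR and DESeq2, which work on the reads without that pseudocount, the change of Fgf4 had the opposite sign, at 1.22 and 0.57, and did not pass. Toward PA2, Hmx1 went from 0.31 at E9.5, with a PA2 mean of 1.84 CPM, to 2.84 at E10.0 with 13.3 CPM (change 2.53, adjusted p 0.0033), and Hoxaas2 from 3.46 to 4.35 (0.89, adjusted p 0.048, and 0.058 with the embryo as a block).

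The count of these stage changes moved with the settings. It was 0 in edgeR, with 733 genes at an unadjusted p under 0.05, 16 in DESeq2 (6 toward PA2 and 10 toward PA1) and 0 in a fit of the compared groups alone. Of the 16, 7 were among the 17 and in the same direction, Fgf8 (adjusted p 0.0053) and Meox1 (0.024) included. In DESeq2 the changes of AI606473, Slitrk6, Hmx1, Hoxaas2 and Fgf4 had an adjusted p of 1, that of Tbx22 0.92 and that of Lhx6 0.3, so they did not pass. With a pseudocount of 0.25 the adjusted p was 0.051 for AI606473, 0.24 for Slitrk6, 0.068 for Hmx1 and Lhx6, and 0.58 for Hoxaas2. In limma Slitrk6 was lost on leaving out any of 12 of the 20 libraries, Lhx6 of 8, Fgf8 of 10, Fgf4 of 15, and Meox1 and Hoxaas2 of 18 each, while AI606473, Hmx1 and Tbx22 passed whichever was left out. Leaving out 1 of the 20 libraries moved the count by over 1.5 times in 15 cases, up to 53 without PA2 of embryo 4 at E9.5 and down to 5 without PA1 of embryo 1 at E9.5.

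Against E10.5, 0 genes changed their arch difference in limma (0.0%), with 338 at an unadjusted p under 0.05 (1.83%), and 0 passed in edgeR and in DESeq2. At E10.5, 252 genes parted the arches (1.37%) over 3 embryos. Those 20 genes with the largest differences at E10.0 all passed at E10.5 in the same direction, and 15 of them at E9.5. Hoxa2 had log2 differences of 5.47, 6.17 and 6.60 at E9.5, E10.0 and E10.5, Pax1 3.09, 3.89 and 3.81, and Fgf3 4.03, 2.90 and 1.88. Lhx8 had -1.48, -2.88 and -2.51, and Pitx1 -4.09, -3.61 and -2.92. The signs were the same at all 3 stages in these 5 genes, and no change between neighbouring stages passed in any of them.

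**Figure D5:**
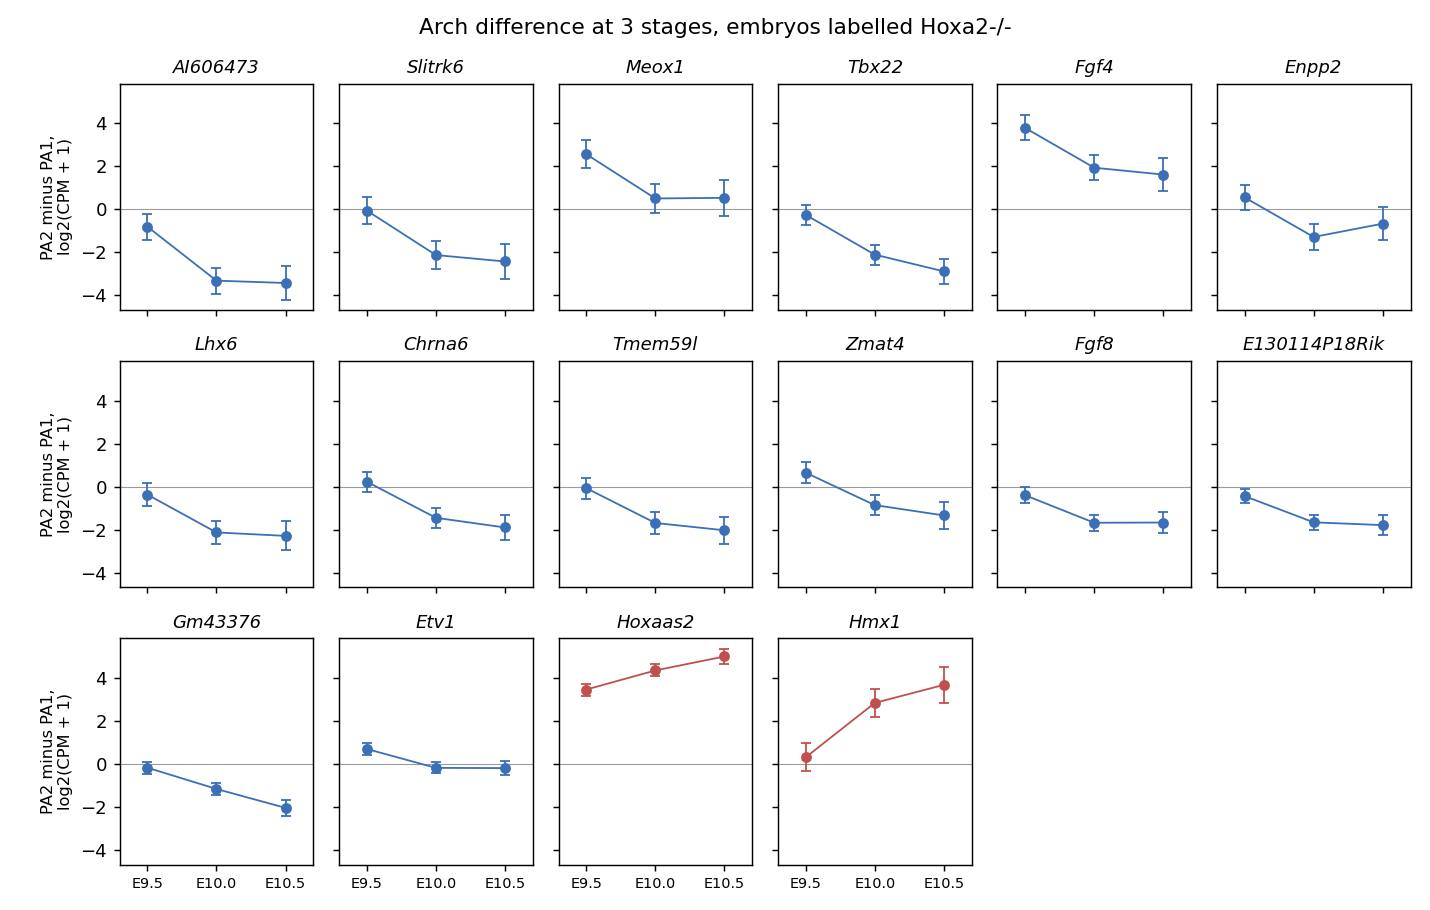
Log2(CPM + 1) difference of PA2 minus PA1 in embryos labelled Hoxa2-/- at E9.5, E10.0 and E10.5 for 16 of the 17 genes whose difference changed between E9.5 and E10.0, with 95% intervals of the limma fit. The 14 genes in blue moved toward PA1 between these stages and the 2 in red toward PA2.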

How the data were processed

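RNA from hand-dissected arches was amplified with a SMART-seq v4 low-input kit and made into Nextera XT libraries, per the labels' protocols. Reads were aligned to mm10 with TopHat2 2.1.1 after bcl2fastq 2.18, and R 3.3.2 was used, per the submitters' processing notes; the counting program, annotation and strandedness are not given in the sources used here. The values the authors deposited are a signal per gene scaled to the reads of its library with normalization factors (CPM). They cover 21948 genes in 68 libraries, with column totals from 926298 to 1051959. 100% of them lay within 0.01 of a whole read after rescaling, so reads were recovered. Reads carry no molecular identifiers, so intervals and floors cover counting error only.

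Genes of at least 1 CPM in 3 libraries (18428) were tested with limma 3.58.1 (R 4.3.3), with its trend setting, on log2(CPM + 1), with 1 mean for each of 16 groups of all 68 libraries (52 residual degrees of freedom), two-sided, Benjamini-Hochberg adjusted at 0.05. Contrasts were PA2 minus PA1 under the label Hoxa2-/- at E10.0, and its difference from wildtype E10.0, from E9.5 and from E10.5. edgeR 4.0.16 (quasi-likelihood) and DESeq2 1.42.0 on recovered reads, other pseudocounts, filters and scalings, and omitted libraries or embryos were alternatives. The test had been planned for CPM and was kept for this unit. It was tested on simulated libraries drawn independently of each other, so the simulation does not cover the likeness between the arches of 1 embryo.

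Numbers pair embryos: the series text says both arches came from 1 embryo, and deviations from group means correlated at 0.34 to 0.50 in 5 same-embryo pairs and at -0.22 to 0.10 in 20 others. Replicate pairs differed beyond sampling noise (chi-square per degree of freedom 6.14 to 14.3 in 20 pairs). Another scaling moved the median of all genes from 0.003 to -0.001. GENCODE M21 gave symbols for 21921 genes and coordinates for 21932. The members and the 28 gene lists were chosen with earlier results of these data known. Named genes were the markers and Hoxa2, the 10 largest non-overlapping differences in each direction that passed, kept 1 sign in all 5 embryos, reached a mean of 5 CPM in 1 arch and had a symbol other than a Gm number or Rik name, list members that passed with a log2 difference of at least 1 or define a list, and genes whose arch difference changed (all if 15 or fewer, otherwise the 5 largest in each direction under the same filters without those on sign and overlap). Values of 6 genes of the lists or of this rule are not reported here, while counts and medians include them.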

Additional observations from a re-analysis of the deposited data

Results flagged for a closer look

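Embryo 4 lay apart from the other embryos labelled Hoxa2-/- at E10.0 in 3 marker sums. Its erythroid genes summed to 8150 CPM in PA1, and its yolk sac endoderm genes to 46.9 CPM in PA1 and 313 CPM in PA2, each far from the other 4 libraries of its group. Over 66 sets of 5 values checked, 3 were marked in this way, and chance marks about 1 in 20.

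The arch difference under the label Hoxa2-/- differed from that of wildtype at E10.0 by -2.36 for 3110099E03Rik, -1.68 for Kcna5 and -0.49 for Meis2 on the log2 scale, each by the limma test of the difference itself.

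Between E9.5 and E10.0 under the same label, the log2 arch difference moved toward PA1 by the limma test for AI606473 (-2.51), Slitrk6 (-2.07), Meox1 (-2.06), Tbx22 (-1.85), Fgf4 (-1.85), Lhx6 (-1.76) and Fgf8 (-1.28). The same test marked 7 further genes: Enpp2 (-1.84), Chrna6 (-1.68), Tmem59l (-1.62), Zmat4 (-1.51), E130114P18Rik (-1.22), Gm43376 (-0.98) and Etv1 (-0.88). Of these, Enpp2, which codes for the enzyme autotaxin, had means of 27.4 CPM in PA1 and 35.6 CPM in PA2 at E9.5, and of 81.8 CPM in PA1 and 34.4 CPM in PA2 at E10.0. Etv1, a transcription factor gene that responds to FGF signals, went from a log2 difference of 0.70 to -0.18. The difference moved toward PA2 for Hmx1 (2.53) and Hoxaas2 (0.89). The 7 further genes were chosen after their values were seen. None of them passed in edgeR or in a fit of the compared groups alone, while Chrna6, Tmem59l, Zmat4 and Etv1 passed in DESeq2. On leaving out single libraries of the 20, Zmat4 was lost in 16 cases, Enpp2 in 15, and Tmem59l and Etv1 in 11 each. Gm43376 was lost in 6 and E130114P18Rik in 4, and Chrna6 passed whichever was left out.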

How the results depend on the processing

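The count of genes that parted the arches was 1512 with the replicate block, ran from 484 to 1153 with 1 library left out and from 433 to 548 with both arches of 1 embryo left out (438 without embryo 4). Under the remaining settings it stayed within 1.5 times of 779, edgeR with 886 and DESeq2 with 1081 included. The count against wildtype was 5 with a pseudocount of 5, 1 in a fit of the compared groups alone, 4 with the replicate block and 3 with any 1 of 20 libraries left out. The count against E9.5 was 2 with a pseudocount of 0.25, 0 in a fit of the compared groups alone, 0 in edgeR and 26 with the replicate block, and ran from 5 to 53 with 1 library left out. The count against E10.5 was 1 with a pseudocount of 5 and 1 in a fit of the compared groups alone, 0 with the replicate block and 0 with any 1 of 16 libraries left out. The cause of these shifts was not tested. Of 44 genes named by rule that parted the arches, 40 passed under every alternative, and Alx4, Hhex, Tbx4 and Gata5 did not. Gata5 was lost among others with a pseudocount of 5 (1.00) and with thinned reads (1.63). Over 56 named-gene results, 118 of the alternative values fell short of the threshold and 1313 kept sign and side. The block brought 3110099E03Rik (0.49) past the threshold between the arches, as well as Spry1, Fgfr2, Foxf1, Foxf2 and Epcam, and took the stage change of Hoxaas2 out (0.89). It changed no other call among the genes named in the text, in any of the 4 comparisons. Further genes of smaller difference that did not pass without 1 or more embryos are named beside their values. In a fit of the compared groups alone, Tfap2a, Grhl1 and Gata5 did not pass, and Hand2, Notch1, Notch3, Cdh1, Foxf1, Fgfr2, Myod1 and Actc1 did, between the arches. The change of Fgf4 from E9.5 reversed in edgeR (1.22) and DESeq2 (0.57). At this depth 3 reads were 0.18 to 0.227 CPM, and differences between levels under that were not detectable.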
